A study of Mus musculus with 12 samples.

Results

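Scleraxis (Scx) is a basic helix-loop-helix transcription factor of the tendon lineage, and the data described here compare forelimb tendon cells that lack it with control cells. The 12123 genes described are all rows of the deposited RNA-seq table whose mean over the Scx-/- and the control value was at least 1 FPKM, out of 15671 rows. FPKM divides a gene's fragment count by its transcript length and by the mapped total of the library, so levels of different genes are compared per length. The table gives 1 value per gene and group, the mean that the authors formed over 3 Scx-/- libraries and over 3 control libraries. Values of single libraries were not analysed here, so no value below carries an SD, an n or a p-value, and no difference below was tested against the spread between embryos. A gene is counted as lower or higher when the ratio of the authors' means passes a stated fold.

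Both groups were GFP+ cells sorted from forelimbs of embryos at stage E15.5 (days after mating), from crosses between Scx+/- mice that carry the Scx-GFP transgene. The sort therefore selected cells by a reporter of Scx promoter activity in both groups, whatever the cells then expressed. In E15.5 Scx-/- forelimbs the paper shows this reporter still expressed, but weaker and less organized than in controls. Whether the sort selected the same cells in both groups was not tested. In Scx-/- embryos both copies of the gene carry the KOMP knockout allele, in which a lacZ reporter cassette stands in place of the coding sequence and non-coding exon sequence remains. Control embryos were littermates, and whether each was wild type or Scx+/- is not stated per library. RNA was amplified before library preparation and genes of the Y chromosome had been discarded. A second experiment of the series mapped Scx binding in E13.5 forelimbs of a different line, Scx-Flag knock-in embryos. Both copies of their Scx gene encode Scx with a FLAG tag, and the antibody was directed at that tag. That experiment is used below only to place Scx peaks beside the genes.

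Tendons join muscle to bone. Their cells secrete type I collagen, which assembles outside the cell into banded fibrils, together with minor fibrillar collagens that set fibril number and with small leucine-rich proteoglycans that bind the fibril surface and limit its width. Scx marks tendon progenitors from an early stage, and Tnmd, a transmembrane glycoprotein, marks tendon cells that have begun to differentiate.

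The labelled cell type fitted the tendon markers in the control mean. Tnmd stood at 134.7 FPKM, Scx at 88.6, Fmod at 84.7, Mkx at 22.9 and Col1a1 at 1333 FPKM in control cells, and Scx, Tnmd, Fmod and Col1a1 lay above the 96th percentile of all rows. Markers of other lineages were also present, some of them at high level. The cartilage collagen Col2a1 stood at 57.1 FPKM in Scx-/- cells and 78.3 in control cells, and the myogenic factor Myog at 30.7 FPKM in Scx-/- cells and 29.0 in control cells. The muscle actin Actc1 reached 322.7 FPKM in Scx-/- cells and 291.9 in control cells. The leukocyte gene Ptprc was at 0.288 and 0.253 FPKM in Scx-/- and control cells, and the osteoblast factor Sp7 at 0.952 and 0.850 FPKM in Scx-/- and control cells, both below 1 FPKM. Bglap, another osteoblast gene, has no row in the table. Other markers of the same lineages stood at other levels. In control cells the cartilage genes Acan and Matn1 had 5.47 and 0.761 FPKM, and the myogenic factor Myod1 9.89 FPKM. The macrophage genes Pf4 and Csf1r had 5.80 and 1.72 FPKM in control cells, and the bone gene Phex 10.9 FPKM. The endothelial gene Cdh5 had 7.55 FPKM in control cells, the epidermal gene Krt5 7.88 FPKM and the nerve marker Sox10 1.42 FPKM.

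Among the 12123 genes the median control level was 8.80 FPKM and the 90th percentile 42.5 FPKM. The highest value belonged to Rn45s, the precursor of ribosomal RNA, with 24069.9 FPKM in Scx-/- cells and 22937 in control cells, or 7.53% and 7.22% of the summed FPKM of Scx-/- and control cells. The 20 highest genes together held 16.5% of summed FPKM in Scx-/- cells and 16.2% in control cells. Of the 20 highest genes in each group 19 were shared. With Rn45s left out, the 20 highest genes held 10.1% of the control sum, the 100 highest held 25.7% and the 1000 highest 57.2%.

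The order below Rn45s was led by H19, a non-coding RNA of the imprinted Igf2 locus, at 3109.6 FPKM in Scx-/- cells and 2910.3 in control cells. Igf2, the fetal growth factor of the same locus, followed with 3127 FPKM in Scx-/- cells and 2845 in control cells. Malat1, a nuclear non-coding RNA, had 2386 FPKM in Scx-/- cells and 2421 in control cells, and the elongation factor Eef1a1 had 2022 and 2088 FPKM in Scx-/- and control cells. The ribosomal protein genes Rpl41, Rps4x, Rps27rt, Rpl32, Rplp2 and Rps23 were also among the 20 highest. Their control levels lay between 1029.8 FPKM (Rps23) and 1744 FPKM (Rpl41). Matrix genes in the same range in control cells were Col1a1 (1333 FPKM), Col1a2 (1249), Sparc (1135) and Col3a1 (1094). Mest, an imprinted gene of growing mesoderm, stood at 1196 FPKM in Scx-/- cells and 1188 in control cells. Actb had 989.3 FPKM in Scx-/- cells and 1023 in control cells. Lars2, a mitochondrial tRNA synthetase gene, had 1056 and 1027 FPKM in Scx-/- and control cells. Mir6236, annotated as a miRNA gene, had 1456 and 1638 FPKM in Scx-/- and control cells. Whether the fragments counted for Lars2 and Mir6236 came from these genes or from similar sequence elsewhere was not analysed here.

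By class, 81 ribosomal protein genes held 12.7% of summed FPKM in Scx-/- cells and 12.5% in control cells, the largest share of the 15 classes set apart. This class, also used as a list below, leaves out Rps27rt and Rps3a1, which are counted with the remaining genes. The 32 collagen chain genes held 1.62% of the sum in Scx-/- cells and 1.68% in control cells, and 110 other matrix genes held 3.33% and 3.27% in Scx-/- and control cells. The 21 imprinted genes held 3.19% of the sum in Scx-/- cells and 2.98% in control cells. Of the control sum, 2.04% lay in 43 chaperone and secretion genes, 2.03% in 62 translation factors and 1.95% in 36 actin, tubulin and related genes. Limb transcription factors and Hox genes, 56 in number, held 0.365% of the control sum, and their median control level was 8.94 FPKM against 413.0 FPKM for ribosomal protein genes. The remaining 11329 genes held 60.2% of the sum in Scx-/- cells and 60.6% in control cells. Of the 15 classes, Rn45s had the widest gap between the groups.

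**Figure D1:**
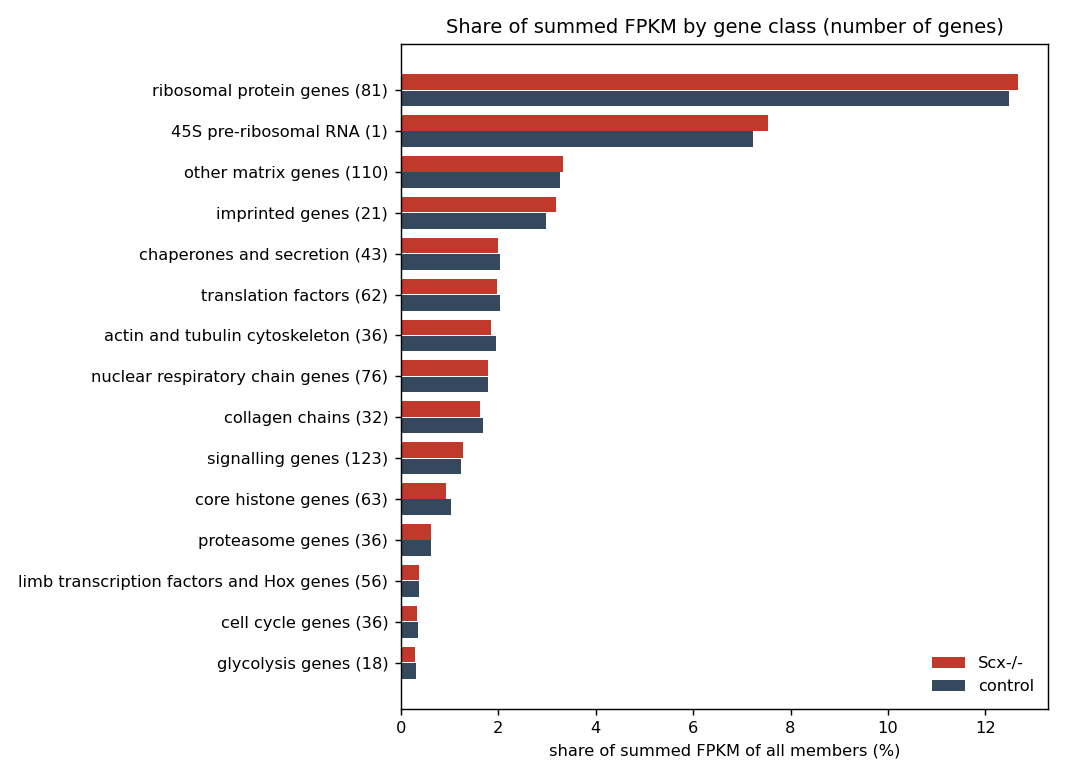
Share of the summed FPKM of all 12123 genes (horizontal axis, percent) held by each of 15 gene classes that do not overlap, with Scx-/- cells above control cells in each pair and the number of genes in brackets. Ribosomal protein genes lead with 12.7% in Scx-/- cells and 12.5% in control cells, and the bars of a pair are close in every class; each bar is 1 mean, with no error.

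The targeted gene itself was lower in the cells labelled Scx-/-. Scx (GRCm38 chr15:76457452-76459458, plus strand) had 41.9 FPKM in Scx-/- cells and 88.6 FPKM in control cells, a log2 ratio of -1.08 or 2.11-fold lower. The allele lacks the whole coding sequence, and with a probe for that sequence the paper found no Scx mRNA by in situ hybridization in E13.5 Scx-/- forelimbs. Non-coding exon sequence stays in place, and which part of the gene the remaining fragments came from was not analysed here. Scx lies inside the span of Bop1, a ribosome assembly gene on the opposite strand, which had 6.33 FPKM in Scx-/- cells and 7.45 in control cells. Fragments of overlapping genes can be told apart only where they fall in exons of 1 of them.

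Most of the transcriptome was alike in the means of both genotypes. The median log2 ratio of Scx-/- over control across the 12123 genes was -0.00038, the 10th percentile -0.17 and the 90th percentile 0.18. Within 1.2-fold of control were 10941 genes (90.2%). Past 2-fold, 17 genes were lower, which is 0.14% of all, and 8 were higher, which is 0.066%. Past 1.5-fold, 74 genes were lower (0.61%) and 69 higher (0.569%). Pearson's r of the log2 levels was 0.995 across genes, which are not independent replicates. As the values are relative to each library's total, fewer cells of a type and less RNA per cell cannot be told apart in any of these ratios.

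The spread of the ratio depended on level, and its middle did not. The median log2 ratio of each level class lay between -0.0038 and 0.014. The width from the 10th to the 90th percentile was 0.62 among the 2303 genes with a mean of 1 to 3 FPKM, 0.36 at 3 to 10 FPKM (4325 genes) and 0.26 at 10 to 30 FPKM (3657 genes). It was 0.22 at 30 to 100 FPKM (1423 genes) and between 0.23 and 0.25 in the 3 classes above. The class of 1 to 3 FPKM held 42 of the 74 genes more than 1.5-fold lower and 57 of the 69 more than 1.5-fold higher. Among the 5495 genes of at least 10 FPKM the 2 directions were uneven, with 13 genes at least 1.5-fold lower and 1 at least 1.5-fold higher. In that range 7 genes were at least 2-fold lower and 0 at least 2-fold higher. How far the wider spread at low levels reflects counting error could not be told, since the depth of the libraries was not analysed here.

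**Figure D2:**
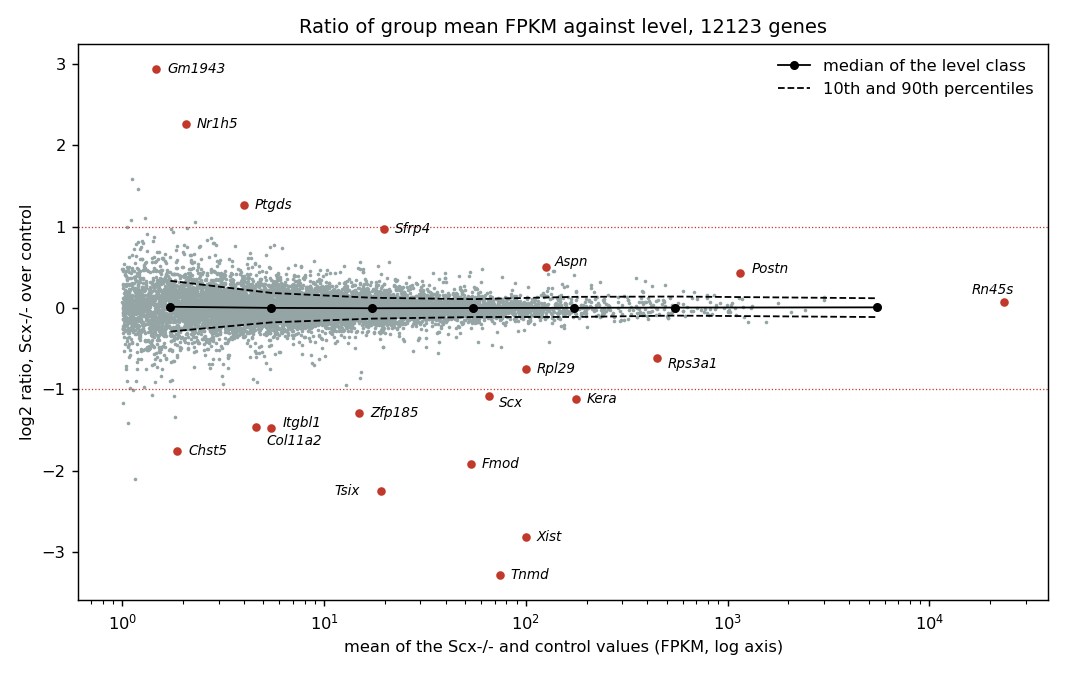
Log2 ratio of the authors' mean FPKM in Scx-/- over control cells (vertical axis) against the mean of both groups (horizontal axis, FPKM, log scale) for 12123 genes, 1 grey point each, with named genes in red. The black line joins the medians of the 7 level classes and the dashed lines their 10th and 90th percentiles, drawn at the middle of each class on the log axis; dotted lines mark 2-fold. Tnmd, Xist, Tsix, Fmod, Zfp185, Kera and Scx are the points of at least 10 FPKM below the lower dotted line.

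The 7 genes of at least 10 FPKM that were more than 2-fold lower were Tnmd, Fmod, Kera, Zfp185, Scx and the overlapping pair Xist and Tsix. Tnmd, on the X chromosome, had 13.8 FPKM in Scx-/- cells and 134.7 FPKM in control cells and was 9.73-fold lower, the lowest log2 ratio of all genes (-3.28). Fmod, which encodes the fibril-binding proteoglycan fibromodulin, had 22.3 FPKM in Scx-/- cells and 84.7 FPKM in control cells and was 3.80-fold lower. Kera, which encodes keratocan, a proteoglycan of the same family, had 111.6 FPKM in Scx-/- cells and 242.5 FPKM in control cells and was 2.17-fold lower. Zfp185, a gene for a LIM domain protein, had 8.69 FPKM in Scx-/- cells and 21.2 FPKM in control cells and was 2.44-fold lower. As plain differences, Scx-/- minus control, Kera (-130.9 FPKM) and Tnmd (-120.9 FPKM) came close to the far more abundant collagen gene Col1a1 (-154.5 FPKM).

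Of the 17 genes more than 2-fold lower, 3 had a Scx peak of the E13.5 experiment centred within 1 kb of the annotated start site: Fmod, Zfp185 and the antisense RNA gene 2810442N19Rik. Their DNA is printed because it is the stretch where the lower level and a Scx peak meet. Scx binds E-boxes, and the letters searched were CAGATG, which reads CATCTG on the opposite strand, and the 2 palindromes CAGCTG and also CATATG. Both strands were searched, and in the printed sequences no match overlaps another. Matches are in capitals. Each sequence is the plus strand of GRCm38.p6 (the assembly of mm10) from RefSeq, and all 3 genes lie on that strand. For Fmod the 250 bases before the start site are shown (chr1:134037004-134037253), of which the last 125 lie within the peak at chr1:134037129-134037328. For 2810442N19Rik they are chr1:162004719-162004968, of which 181 lie within the peak at chr1:162004788-162004987. The Zfp185 peak, whose centre lies at -422 bases from the start site, is shown whole (chrX:72986817-72987016).
Fmod: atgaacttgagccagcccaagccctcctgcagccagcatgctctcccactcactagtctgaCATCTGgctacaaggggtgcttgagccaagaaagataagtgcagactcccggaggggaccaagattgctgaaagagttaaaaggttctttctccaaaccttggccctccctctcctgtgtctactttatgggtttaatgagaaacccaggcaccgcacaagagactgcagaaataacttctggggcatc
2810442N19Rik: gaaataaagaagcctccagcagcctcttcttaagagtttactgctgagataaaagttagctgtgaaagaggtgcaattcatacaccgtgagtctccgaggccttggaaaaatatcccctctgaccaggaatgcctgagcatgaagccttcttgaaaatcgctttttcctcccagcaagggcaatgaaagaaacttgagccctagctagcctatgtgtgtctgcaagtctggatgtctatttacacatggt
Zfp185: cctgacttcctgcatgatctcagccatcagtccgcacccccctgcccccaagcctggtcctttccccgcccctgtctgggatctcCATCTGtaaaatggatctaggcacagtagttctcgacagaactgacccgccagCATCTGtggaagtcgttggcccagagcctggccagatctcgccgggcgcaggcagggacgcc

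The Zfp185 peak held 2 matches, with first bases at -437 and -384 from the start site, and the Fmod window held 1, at -189 and so outside the peak. The window of 2810442N19Rik held 0. Both windows end before the start site, whereas the peaks run on past it, so matches in the rest of these 2 peaks are not counted here. By comparison, 60.3% of all 12097 peaks of 200 bases and 28.1% of the 32851 windows of 250 bases before RefSeq start sites held at least 1 match, so such a match is common in either kind of sequence. In expression, Fmod had the widest difference of the 3 in FPKM, and 2810442N19Rik was low in both groups, with 1.04 FPKM in Scx-/- cells and 2.63 FPKM in control cells.

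The other genes more than 2-fold lower had lower levels. Col11a2, a chain of the minor fibrillar collagen XI, had 2.44 FPKM in Scx-/- cells and 6.74 in control cells. Itgbl1, which encodes a secreted integrin beta-like protein, had 2.89 FPKM in Scx-/- cells and 8.06 in control cells. Chst5, a carbohydrate sulfotransferase gene, had 0.852 FPKM in Scx-/- cells and 2.88 in control cells. The homeobox gene Gsc had 0.622 FPKM in Scx-/- cells and 1.40 in control cells. The same order of level held for the antisense RNA gene 2610016A17Rik, at 0.434 FPKM in Scx-/- cells and 1.87 in control cells, and for Gnpda1, an amino sugar enzyme gene, at 0.578 FPKM in Scx-/- cells and 1.55 in control cells. Tlr1, Nrgn and Batf, between 2.01- and 2.11-fold lower, had at most 2.45 FPKM in either group. Chst5, Gsc, 2610016A17Rik, Gnpda1, Nrgn and Batf were below 1 FPKM in Scx-/- cells and reached a mean of 1 FPKM only through the control value. Just outside the fold, Spaca1 (log2 ratio -0.98) and Fam217b (-0.97) stood next to Batf (-1.01).

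Between 1.5- and 2-fold, 57 genes were lower, and at 10 FPKM or more these were Htra3, Tmem14c, Spc24, Spon2, Rpl29 and Rps3a1. Htra3, a secreted serine protease gene, had 11.2 FPKM in Scx-/- cells and 19.3 in control cells. Tmem14c, a gene for a mitochondrial membrane protein, had 8.74 FPKM in Scx-/- cells and 16.9 in control cells, and Spc24, a kinetochore gene, had 10.7 and 19.4 FPKM in Scx-/- and control cells. Spon2, a matrix protein gene of the spondin family, was at the edge of the fold, with 8.10 FPKM in Scx-/- cells and 12.1 in control cells. Rpl29 had 74.3 FPKM in Scx-/- cells and 125.2 in control cells, and Rps3a1 had 351.2 and 539.9 FPKM in Scx-/- and control cells. Both ribosomal protein genes have many near-identical processed copies in the mouse genome, among which counting can split their fragments, so their ratios are uncertain. At 3 to 10 FPKM the next lowest after Itgbl1 and Col11a2 were Naalad2 (2.16 FPKM in Scx-/- cells, 4.13 in control cells), F2rl1 (3.24 in Scx-/- cells, 6.08 in control cells) and Anxa8 (3.14 in Scx-/- cells, 5.73 in control cells).

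All 8 genes more than 2-fold higher in Scx-/- cells had less than 5 FPKM on average, and 7 of them less than 3 FPKM. Ptgds, which encodes a prostaglandin D synthase, was the most abundant of them, with 5.68 FPKM in Scx-/- cells and 2.36 in control cells. The nuclear receptor gene Nr1h5 had 3.43 FPKM in Scx-/- cells and 0.716 in control cells. Gm1943, a processed pseudogene of 174 bases, had 2.60 FPKM in Scx-/- cells and 0.341 in control cells, the highest log2 ratio of all (2.93). Gstm6, Snora44, Emc9, Aif1 and BC100530 made up the rest, at up to 3.10 FPKM in Scx-/- cells and up to 1.49 in control cells. Gm1943, Nr1h5, Gstm6, Snora44, Emc9 and Aif1 were below 1 FPKM in control cells and reached a mean of 1 FPKM only through the Scx-/- value. Gstm6 belongs to a family of glutathione S-transferase genes with similar sequences, and Snora44 is a small nucleolar RNA gene.

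At higher levels the genes furthest above control stayed under 2-fold and included secreted and matrix genes. Sfrp4, a secreted Wnt antagonist gene, was the single gene of at least 10 FPKM more than 1.5-fold higher, with 26.4 FPKM in Scx-/- cells and 13.4 in control cells (1.97-fold). In the class of 10 to 30 FPKM it was followed by Pianp, Ndrg2, Fxyd1 and Rbp4, from 1.43- to 1.48-fold higher. In the class of 30 to 100 FPKM the highest ratios were those of Fibin (70.4 FPKM in Scx-/- cells, 50.6 in control cells), Eln, which encodes elastin (60.8 in Scx-/- cells, 44.7 in control cells), the co-factor gene Ldb2 (40.0 in Scx-/- cells, 29.7 in control cells), the Wnt antagonist gene Sfrp1 (45.4 in Scx-/- cells, 33.7 in control cells) and Usmg5, a gene of the mitochondrial ATP synthase (58.9 in Scx-/- cells, 44.97 in control cells). From 100 to 300 FPKM they were Aspn, a proteoglycan gene, with 146.8 FPKM in Scx-/- cells and 103.6 in control cells, the beta-globin genes Hbb-b1 and Hbb-bs, the matrix gene Dpt with 147.2 FPKM in Scx-/- cells and 110.3 in control cells, and the growth factor gene Igf1 with 197.6 FPKM in Scx-/- cells and 149.9 in control cells.

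Among the most abundant genes the ratios kept within 1.35-fold in the class of 1000 FPKM or more. Postn, which encodes the matrix protein periostin, had 1328 FPKM in Scx-/- cells and 985.6 in control cells and was 1.35-fold higher, a difference of 342.4 FPKM, second in size only to the 1133 FPKM of Rn45s. In the class of 300 to 1000 FPKM, Agtr2, an angiotensin receptor gene, had 395.3 FPKM in Scx-/- cells and 306.4 in control cells, Peg3os had 435.3 and 347.2 FPKM in Scx-/- and control cells, and the membrane protein gene Itm2a had 538.6 and 441.6 FPKM in Scx-/- and control cells. Ribosomal protein genes Rps18 and Rpl39 followed at 1.21- and 1.15-fold higher. At the other end of that class, next to Rps3a1, were Gapdh (290.1 FPKM in Scx-/- cells, 321.2 in control cells), Hist1h4d, H2afz and Pabpc1, from 1.09- to 1.11-fold lower.

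The tendon list combined large and small ratios. Of 22 listed markers of differentiating tendon cells 21 reached 1 FPKM, 5 were more than 1.5-fold lower (23.8%, against 0.61% of all genes), 0 more than 1.5-fold higher, and the median log2 ratio was -0.16, against -0.00038 over all genes. Since 16 of the 21 were below 0, the list leaned to lower values beyond the 5, which were Tnmd, Fmod, Kera, Scx and Htra3. Ssc5d, a scavenger receptor family gene, had 29.6 FPKM in Scx-/- cells and 43.4 in control cells, and Mkx, a homeobox factor of tendon growth, had 16.5 and 22.9 FPKM in Scx-/- and control cells. Thbs4, a thrombospondin of the tendon matrix, had 49.3 FPKM in Scx-/- cells and 66.0 in control cells. At the same time the fibril-associated collagen genes Col12a1 (187.1 FPKM in Scx-/- cells, 186.9 in control cells) and Col14a1 (128.3 in Scx-/- cells, 128.9 in control cells) were within 0.01 of each other on the log2 scale between groups. Fbln5, an elastic fibre gene, had the highest ratio of the list, with 25.8 FPKM in Scx-/- cells and 21.3 in control cells. Scx is itself the targeted gene, so its lower level was set by the design. The list also holds genes that the study names for their response to Scx in these samples. For both reasons its count is not independent evidence of direction.

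The small leucine-rich proteoglycans split by gene. In order of control level, Dcn (decorin) had 649.1 FPKM in Scx-/- cells and 668.2 in control cells, Bgn (biglycan) 633.4 and 626.7 FPKM in Scx-/- and control cells, and Lum (lumican) 386.7 and 366.4 FPKM in Scx-/- and control cells. These 3, the most abundant of the family, differed by at most 0.08 in log2 ratio. Kera and Fmod were more than 2-fold lower, Epyc, Chad and Prelp had log2 ratios of -0.44, -0.42 and -0.30, and Aspn, Omd and Podn had log2 ratios of 0.50, 0.36 and 0.23. The median of the 13 members was 0.015, and their summed level was 2249 FPKM in Scx-/- cells and 2382 FPKM in control cells.

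**Figure D3:**
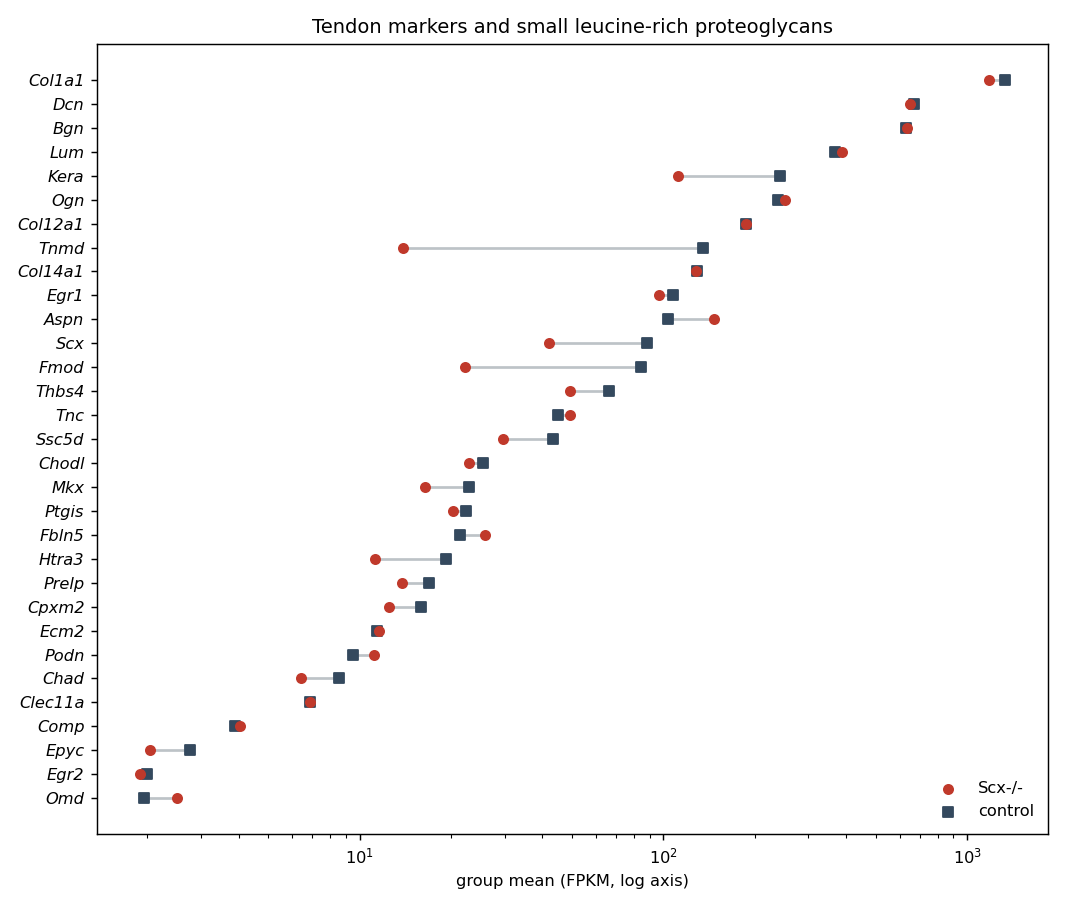
Mean FPKM (horizontal axis, log scale) of tendon markers and small leucine-rich proteoglycan genes of at least 1 FPKM in Scx-/- cells (circles) and control cells (squares), ordered by control level, with a grey line between the 2 values of a gene. The longest line is that of Tnmd (13.8 FPKM in Scx-/- cells, 134.7 FPKM in control cells), whereas the symbols of Col12a1, Col14a1 and Bgn overlap; each symbol is 1 mean, with no error.

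Collagen genes were divided in the same manner. Col1a1 had 1178 FPKM in Scx-/- cells and 1333 in control cells, and Col1a2, its partner chain in type I collagen, had 1153 and 1249 FPKM in Scx-/- and control cells, at log2 ratios of -0.18 and -0.11. Col3a1, the chain of type III collagen, had 1189 FPKM in Scx-/- cells and 1094 in control cells. The collagen V genes Col5a1 and Col5a2 had log2 ratios of 0.018 and 0.076. Of the minor and cartilage fibrillar chains, Col11a1 had 63.1 FPKM in Scx-/- cells and 87.8 in control cells and Col2a1 had 57.1 and 78.3 FPKM in Scx-/- and control cells, and both were lower by a log2 ratio near that of Mkx, besides Col11a2 above. Col27a1 was the highest of the 11 fibrillar chains, at a log2 ratio of 0.18. The 21 non-fibrillar chains had a median of 0.022. The beaded-filament chain Col6a1 led them at 228.8 FPKM in Scx-/- cells and 211.9 in control cells, and their extremes were Col25a1 (log2 ratio -0.47) and Col6a6 (0.24).

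Matrix glycoproteins leaned the other way. Of 42 members 29 were above 0 and 13 below, the median was 0.066, and 0 passed 1.5-fold, where the shares of all genes (0.61% lower, 0.569% higher) are too small to expect a member of a list of this size. Their summed level was 5599 FPKM in Scx-/- cells and 5163 FPKM in control cells, of which Postn accounts for most of the difference. Fibin was the highest (0.48) and Cilp, a cartilage intermediate layer gene, the lowest (-0.47), and Sparc, the most abundant in control cells, had 1066 FPKM in Scx-/- cells and 1135 in control cells. Genes for collagen folding and crosslinking were close to 0, with a median log2 ratio of -0.0059 over 29 members, from Pcolce2 (-0.33) to P4ha2 (0.22). Ppib, P4hb and Serpinh1, chaperones of procollagen and the most abundant of these, had control levels of 326.2, 287.4 and 274.0 FPKM. Among 27 matrix proteases and inhibitors the median was -0.014, led in level by Mmp2 (135.1 FPKM in Scx-/- cells, 137.1 in control cells), with Htra3 the lowest and Adamts4 the highest (0.40). Integrins and focal adhesion genes had a median of -0.043 over 23 members, with Itgbl1 the lowest (-1.48) and Itgb8 the highest (0.19), and the main matrix receptor chain Itgb1 had 128.9 FPKM in Scx-/- cells and 132.2 in control cells.

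Limb transcription factors mostly had close values in both groups. Nfib had 129.2 FPKM in Scx-/- cells and 115.8 in control cells, Tcf4 85.4 and 88.5 FPKM in Scx-/- and control cells, and Osr1, a factor of irregular connective tissue, 88.0 and 86.7 FPKM in Scx-/- and control cells. Of 38 members 1 was more than 1.5-fold lower (against 0.61% of all genes), Six2, with 3.96 FPKM in Scx-/- cells and 6.34 in control cells, and its partner gene Eya1 came next with 2.69 FPKM in Scx-/- cells and 4.01 in control cells. Meis3 was the highest (log2 ratio 0.26) and the median was 0.053. The 18 Hox genes of at least 1 FPKM had a median of -0.026, between Hoxa2 (-0.44) and Hoxc4 (0.46).

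Growth and signalling genes showed small ratios with a few exceptions. In the imprinted list 17 of 21 members were above 0, the median was 0.088, and the range ran from Nnat (-0.18) to Plagl1 (0.32). Plagl1, an imprinted zinc finger factor, had 258.9 FPKM in Scx-/- cells and 207.5 in control cells. In the IGF system 11 of 12 were above 0 (median 0.085), led by Igf1 (0.40), with the binding protein Igfbp6 lowest (-0.055). TGF-beta pathway genes, whose ligands induce tendon progenitors, had a median of 0.019 over 20 members, with Inhba lowest (-0.29) and Ltbp2 highest (0.16), and the receptor Tgfbr2 stood at 49.6 FPKM in Scx-/- cells and 52.3 in control cells. The BMP and GDF pathway had a median of 0.0099 over 26 members, with Bmp2 lowest (-0.30) and the antagonist Fst highest (0.29). In the FGF pathway (median 0.030 over 17 members) the ligand Fgf9 was the lowest (-0.62), with 1.29 FPKM in Scx-/- cells and 1.99 in control cells, and Fgf10 was the highest, with 9.67 FPKM in Scx-/- cells and 7.31 in control cells. In the Wnt pathway (median 0.040 over 29 members) Sfrp4 and the agonist Rspo2 were more than 1.5-fold higher (2 of 29, against 0.569% of all genes), Rspo2 with 5.24 FPKM in Scx-/- cells and 3.42 in control cells, and Wnt2 was the lowest (-0.37). Among migration signals (median 0.022 over 26 members) Hgf was the highest (0.55) and Sema3d the lowest (-0.32), and the chemokine Cxcl12 had 31.6 FPKM in Scx-/- cells and 25.5 in control cells.

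**Figure D4:**
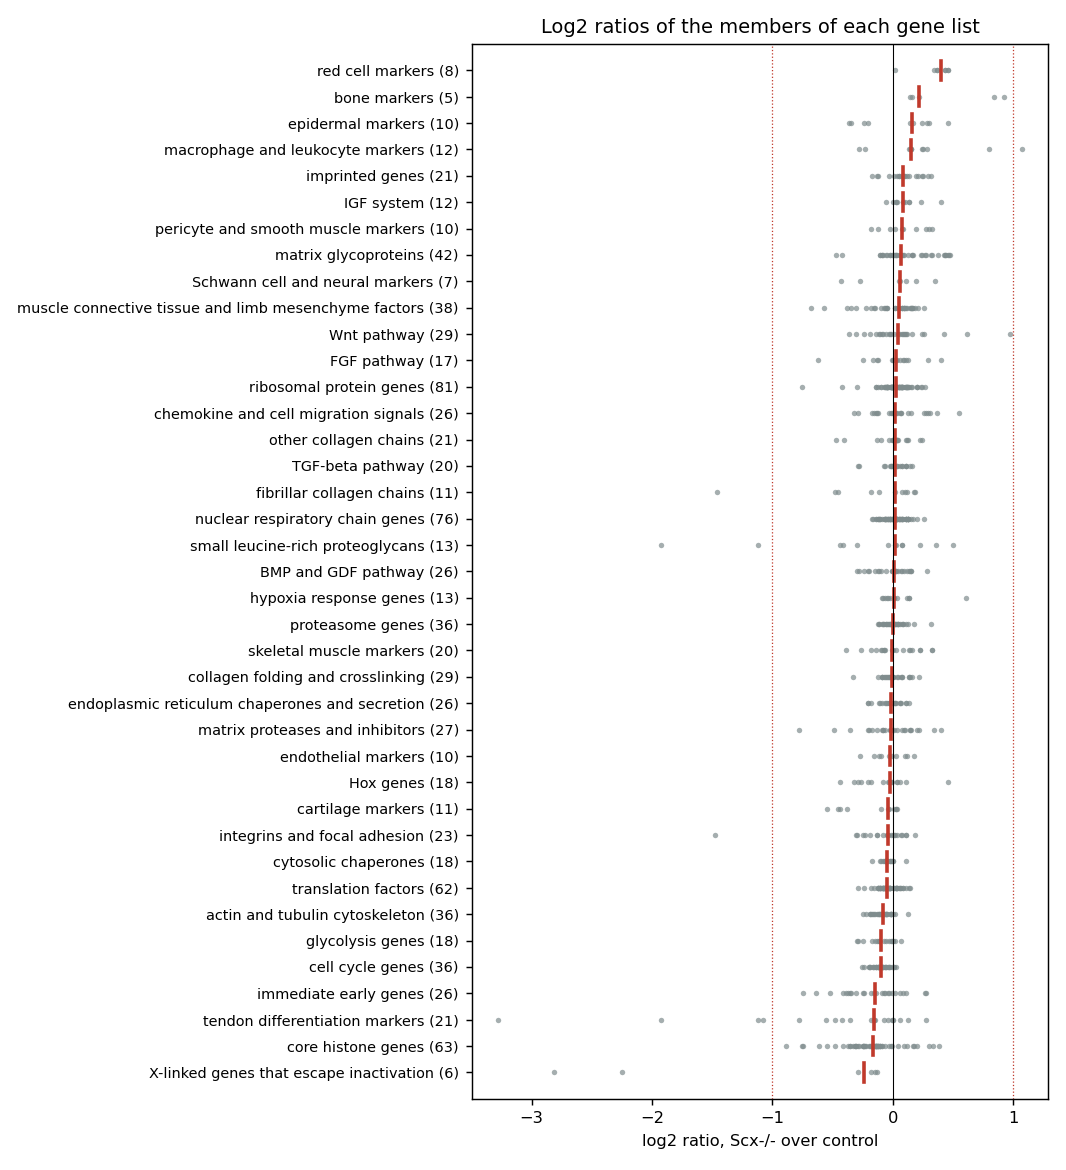
Log2 ratio of Scx-/- over control (horizontal axis) for the genes of at least 1 FPKM in each of 39 gene lists, 1 grey point a gene, with the list median as a red bar and the number of genes in brackets; dotted lines mark 2-fold. List medians run from -0.24 (X-linked genes that escape inactivation, a list that also holds Tsix) to 0.40 (red cell markers), and points beyond 2-fold to the left occur in 5 of the lists, among them tendon markers, proteoglycans and fibrillar collagens.

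Genes of proliferation were slightly and evenly lower in Scx-/- cells. Of 36 cell cycle genes 33 were below 0, the median log2 ratio was -0.10 and the range only -0.25 (Cenpe) to 0.024 (Ccne2). Mki67, a marker of dividing cells, had 86.4 FPKM in Scx-/- cells and 96.7 in control cells, Top2a 83.0 and 93.1 FPKM in Scx-/- and control cells, and Pcna 92.3 and 101.7 FPKM in Scx-/- and control cells. Of 63 core histone genes 54 were below 0 (median -0.16), and their sum was 2956 FPKM in Scx-/- cells and 3244 in control cells. Histone genes of a cluster are near copies of each other, so single values such as that of Hist1h2af (-0.89) are uncertain. Among actin, tubulin and related genes 33 of 36 were below 0 (median -0.082), from Myh9 (-0.24) to Myl9 (0.13), and among glycolysis genes 14 of 18 were below 0 (median -0.095), with Eno1 lowest (-0.30). Immediate early genes, which respond within minutes to stimuli including cell dissociation, had 20 of 26 below 0 and a median of -0.15, with Klf2 (-0.75) and Junb (-0.64) more than 1.5-fold lower (2 of 26, against 0.61% of all genes) and Nr4a2 (0.27) the highest. Fos had 25.7 FPKM in Scx-/- cells and 33.3 in control cells. Whether time from dissection to lysis differed between groups was not analysed here, and its part in these ratios was not tested.

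Other housekeeping lists lay closer to 0. Ribosomal protein genes had a median of 0.026 over 81 members, from Rpl29 (-0.75) to Rps18 (0.27), translation factors -0.050 over 62, from Eif2s3x (-0.29) to Eif4a1 (0.14), nuclear respiratory chain genes 0.017 over 76, from Atp5k (-0.17) to Ndufb6 (0.26), and proteasome genes 0.00012 over 36, from Psmd1 (-0.12) to Psmd10 (0.31). Cytosolic chaperones had a median of -0.046 over 18 members, with Hspb1 lowest (-0.17) and Dnajb1 highest (0.11), and endoplasmic reticulum chaperones -0.013 over 26, with Creld2 lowest (-0.21) and Xbp1 highest (0.13). Hypoxia response genes had a median of 0.0081 over 13 members, with Adm the highest (0.61), at 1.52 FPKM in Scx-/- cells and 0.997 in control cells. Genes of the mitochondrial chromosome have no row in the table.

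The X chromosome stood apart from the autosomes. Xist, which is transcribed from the silenced X chromosome of females, had 24.9 FPKM in Scx-/- cells and 174.7 FPKM in control cells, 7.02-fold lower, and Tsix, its antisense partner over the same locus, had 6.67 FPKM in Scx-/- cells and 31.8 in control cells. Without strand the fragments of the 2 cannot be told apart. Ddx3x, Kdm6a, Eif2s3x and Kdm5c, which are also transcribed from the second X of female cells, were each lower, with log2 ratios of -0.18, -0.13, -0.29 and -0.15. With Xist and Tsix 6 of 6 genes of their list were below 0, but Tsix is listed only as the partner of Xist and is not an independent entry. X-linked genes as a whole had the opposite lean, with a median log2 ratio of 0.042 over the 434 genes other than Xist and Tsix, 279 above 0 and 155 below, whereas the medians of the 19 autosomes ran from -0.013 to 0.011. The X-linked median was above 0 in each of the 6 level classes that held at least 5 such genes, from 0.015 at 30 to 100 FPKM to 0.091 at 1 to 3 FPKM. The sexes of the embryos behind the means were not analysed here, so a different number of females per group and the genotype cannot be told apart for these genes. Tnmd and Zfp185 are X-linked as well, and besides Xist and Tsix no other X-linked gene was more than 2-fold lower. For Tnmd and Zfp185 the paper also reports lower expression in Scx-/- forelimbs by in situ hybridization and by quantitative RT-PCR on further embryos, whose sexes it does not give.

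Among markers of other cell types, those of red cells, bone and macrophages lay mostly above 0. Of 8 red cell markers 8 were above 0 (median 0.40), and the sum was 444.8 FPKM in Scx-/- cells and 329.3 in control cells. Hbb-b1 had 159.0 FPKM in Scx-/- cells and 115.8 in control cells, and Hbb-bs 156.9 and 114.4 FPKM in Scx-/- and control cells, while Hbb-b2 and Hbb-bt share the same values, so the globin copies are not separated. Bone markers were above 0 in 5 of 5 (median 0.22), with Ibsp at 2.35 FPKM in Scx-/- cells and 1.23 in control cells and Ifitm5 at 3.38 and 1.89 FPKM in Scx-/- and control cells. Macrophage and leukocyte markers were above 0 in 10 of 12 (median 0.15), the exceptions being Pf4 (-0.23), the most abundant of them in control cells, and Tyrobp (-0.28), and all were below 6 FPKM. Aif1 (1.4996 FPKM in Scx-/- cells, 0.712 in control cells) and Lyz2 (3.60 in Scx-/- cells, 2.07 in control cells) were more than 1.5-fold higher (2 of 12, against 0.569% of all genes). In the class of 1 to 3 FPKM, where both lie, 2.48% of genes were that much higher. Aif1 reached a mean of 1 FPKM only through its Scx-/- value, so its count as higher is not evidence of direction. Cartilage markers had a median of -0.036 over 11 members and a sum of 137.8 FPKM in Scx-/- cells and 162.5 in control cells, with Sox9 at 17.2 and 16.8 FPKM in Scx-/- and control cells. Skeletal muscle markers had a median of -0.0023 over 20 members and a sum of 650.1 FPKM in Scx-/- cells and 620.7 in control cells. Endothelial (-0.021), pericyte (0.080), Schwann cell (0.056) and epidermal (0.16) medians rested on 10, 10, 7 and 10 members. The part that these cells play in the ratios of other genes was not tested.

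Sequence properties moved with the ratio by small amounts. By GC content of the exons, the median log2 ratio was 0.025 in the lowest of 4 equal groups (31.0% to 44.8% GC) and -0.0021, -0.013 and -0.017 in the next 3, in order of GC. By exon length the medians stayed between -0.0034 and 0.0037, but the width from the 10th to the 90th percentile was 0.46 in the shortest of 4 equal groups and 0.28 in the longest. All 8 genes more than 2-fold higher fell in the shortest group, and 9 of the 17 more than 2-fold lower. By type, 69 lincRNA genes and 83 processed transcripts had medians of 0.053 and 0.082, against -0.0018 for 11685 protein-coding genes. Whether these properties have a part in the ratios of single genes was not tested.

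Scx peaks lay near the start sites of genes of 10 to 1000 FPKM more often than near those of lower level. Of 12029 genes with an annotated start site, 2955 (24.6%) had a peak centred within 5 kb of it. The share was 11.2% at 1 to 3 FPKM (95% exact binomial interval 9.94% to 12.6%), 20.6% at 3 to 10 FPKM, 31.2% at 10 to 30 FPKM, 38.1% at 30 to 100 FPKM (35.5% to 40.7%), 36.6% at 100 to 300 FPKM and 31.1% at 300 to 1000 FPKM. In the highest class, 1000 FPKM or more, it was 5 of 21 genes (23.8%, 8.22% to 47.2%). These intervals cover counting of genes only. By fold, 5 of the 17 genes more than 2-fold lower had such a peak (29.4%, 10.3% to 56.0%), against 25.7% of the 10864 genes within 1.2-fold. Of genes more than 2-fold higher it was 0 of 8, which allows a share of up to 36.9%, and of genes 1.5- to 2-fold lower 10.5% of 57 (3.96% to 21.5%). Of the 60 genes 1.5- to 2-fold higher it was 6.67% (1.85% to 16.2%). The share was 16.1% (12.8% to 19.8%) in the 454 genes 1.2- to 1.5-fold lower and 12.3% (9.72% to 15.3%) in the 569 genes 1.2- to 1.5-fold higher. Genes between 1.2- and 2-fold thus had fewer peaks than genes within 1.2-fold in both directions. As genes at low level are overrepresented among those past 1.5-fold, the shares were also taken at 10 FPKM or more, where 3 of 7 genes more than 2-fold lower had a peak (42.9%, 9.90% to 81.6%), against 33.6% of 5286 genes within 1.2-fold. The interval of these 7 genes holds the share of the genes within 1.2-fold, so a difference in peak frequency was not detectable for genes more than 2-fold lower. Of the 98 genes 1.2- to 1.5-fold higher in that range 17.3% had a peak (10.4% to 26.3%), an interval below the 33.6% of genes within 1.2-fold. Kera just missed the distance, with a peak centre 5139 bases after its start site, and the Scx gene had one 4758 bases after its own. The peak nearest to the Tnmd start site was centred at -20741 bases from it.

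**Figure D5:**
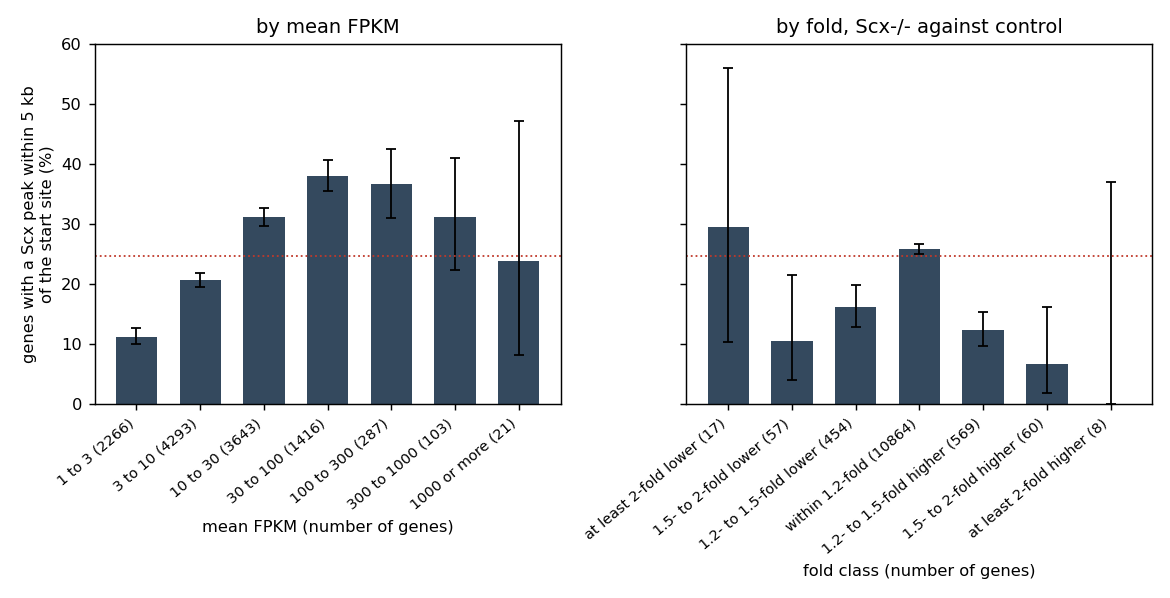
Share of genes with a Scx peak centred within 5 kb of the start site (vertical axis, percent) by mean FPKM class (left) and by fold of Scx-/- against control (right), with the number of genes in brackets, 95% exact binomial intervals as bars and the share of all genes (24.6%) as a dotted line. The share runs from 11.2% at 1 to 3 FPKM to 38.1% at 30 to 100 FPKM, and the interval of the 17 genes more than 2-fold lower (10.3% to 56.0%) spans the dotted line.

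Which gene lists were rich in peaks depended on the distance. Within 5 kb, where 24.6% of all genes had a peak, the TGF-beta pathway led with 14 of its 20 members (70.0%, 45.7% to 88.1%), fibrillar collagens had 6 of 11 (54.5%) and tendon markers 6 of 21 (28.6%). Within 50 kb, where 52.0% of all genes had a peak, it was 19 of 21 tendon markers (90.5%, 69.6% to 98.8%), 11 of 13 small leucine-rich proteoglycans (84.6%), 9 of 11 fibrillar collagens (81.8%) and 16 of 20 genes of the TGF-beta pathway (80.0%). Histone genes, many of which lie side by side in clusters, led at that distance with 59 of 63 (93.7%). The tendon list holds genes that the study names for their response to Scx and their peaks, so its share is a description. List shares were not matched for level. Over the level classes from 10 to 300 FPKM the share of all genes was 31.2% to 38.1% within 5 kb and 56.5% to 69.3% within 50 kb. The interval of the TGF-beta pathway does not allow for its choice as the highest of 39 lists. Other genes with a peak within 1 kb of the start and a ratio past 1.5-fold were Fam217b, Myom1 and Epm2a among those lower, and Adgrb3, Wwox and 1810062O18Rik among those higher, all below 5 FPKM in both groups. Fibin, with a peak centre 123 bases after its start site, and Igf1, at 846 bases, were higher at 1.39- and 1.32-fold.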

How the data were processed

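The series measured RNA in 3 Scx-/- and 3 control samples of sorted E15.5 forelimb cells and Scx binding in 3 ChIP and 3 input samples of E13.5 forelimbs. For RNA-seq the authors aligned 75 bp paired reads to mm10 with STAR 2.7.4, counted them per gene with featureCounts of Subread, discarded Y-linked genes, modelled a sex-related unwanted factor with RUVs for their tests and deposited group means in FPKM. Whether the FPKM means had that factor removed, and the annotation used for counting, are not given in the sources used here. The deposited table also holds a fold change, a p-value, an adjusted p-value and a status for each gene from the authors' own comparison with DESeq2, which were not used. The ChIP table deposited by the authors lists mm10 peaks with a score that is 0 throughout, so only positions were used.

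Log2 ratios of Scx-/- over control were formed without a pseudocount, since 0 of the 12123 genes had a 0 in either group. With 1 mean per group, no test was run, and the number of libraries and depth limit the precision to an unknown degree. Symbols were matched to GENCODE M21 for 12029 genes (99.2%), of which 165 through another symbol, and 17 of the genes carry a date in place of a symbol. Peak distances run from the annotated start to the peak centre. Levels of 1, 3, 10, 30, 100, 300 and 1000 FPKM bound the classes. Python 3.11.15, numpy 2.4.6, pandas 2.3.3, scipy 1.17.1 and matplotlib 3.10.9 were used, and the ratio, class and counting steps were tested on input with known answers. Alternatives were a floor of 5 FPKM, a pseudocount of 1 FPKM, scaling, centring, other level classes and other peak distances.

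The genes, lists and rules were chosen with earlier results of these data known. Named genes were the 20 of highest control level, the 5 lowest and 5 highest ratios in each level class (3 and 3 at 1000 FPKM or more), in each list the 3 highest control levels and the extreme ratios, Scx, Xist, and genes more than 2-fold lower with a peak within 1 kb. Not all of these are reported here, and the printed genes that fall outside the rule were chosen after their values were seen, among them Tlr1, Nrgn, Batf, BC100530, Spon2, Spaca1, Fam217b, Bop1, Ssc5d, Thbs4, Mkx, Eya1, Cxcl12, Rspo2, Junb, Fos, Lyz2, Ifitm5 and genes with a promoter peak.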

Additional observations from a re-analysis of the deposited data

How the results depend on the processing

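Counts past a fold depended on how low levels were treated. With a floor of 5 FPKM in place of 1 FPKM, 8 genes were at least 2-fold lower and 0 higher, against 17 lower and 8 higher, and 20 were at least 1.5-fold lower and 5 higher, against 74 lower and 69 higher. With a pseudocount of 1 FPKM the counts were 11 lower and 2 higher at 2-fold, and 27 lower and 16 higher at 1.5-fold. The higher genes thus went down by the larger factor in both settings, which by construction act on low levels. Scaling both columns to the same sum gave 17 lower and 8 higher at 2-fold and 80 lower and 68 higher at 1.5-fold, and centring on the median changed each count by at most 1. The median log2 ratio of all genes lay between -0.0087 and -0.00036 over the alternatives. A pseudocount narrowed the 10th to 90th percentile width at 1 to 3 FPKM to 0.39, against 0.62. Leaving out Rn45s, chosen after seeing the data, took the share of control FPKM in the 20 highest genes to 10.1%, against 16.2%, and leaving out Xist and Tsix, also chosen after seeing the data, left 15 genes lower at 2-fold and 72 at 1.5-fold. Of 117 recomputed list medians 2 moved by over 0.1 and 7 crossed 0, and the 2 were those of macrophage markers (-0.23) and Schwann cell markers (-0.27) with the floor of 5 FPKM, which left 1 gene in each list (Pf4 and Ngfr). The share of genes with a Scx peak ran from 8.30% to 32.9% over the level classes within 1 kb and from 41.1% to 69.3% within 50 kb, against 11.2% to 38.1% within 5 kb. Leaving out mitochondrially encoded genes changed nothing, as the table holds none. No paired analysis was possible because the values are group means, and for the same reason no library could be left out.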

Other observations

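Below the floor the table still holds 1789 genes with a mean of 0.3 to 1 FPKM and a value in both groups, of which 56 were at least 2-fold lower and 54 at least 2-fold higher in Scx-/- cells. Among the lowest ratios there, chosen after their values were seen, were Syt7, a synaptotagmin gene, with 0.272 FPKM in Scx-/- cells and 1.25 in control cells, Car9, a carbonic anhydrase gene that responds to low oxygen, with 0.287 FPKM in Scx-/- cells and 1.24 in control cells, and Cilp2, a relative of the matrix gene Cilp, with 0.307 FPKM in Scx-/- cells and 0.942 in control cells. Among the highest were Sycp1, a meiotic gene, with 1.29 FPKM in Scx-/- cells and 0.361 in control cells, and Rab33a, with 1.11 FPKM in Scx-/- cells and 0.372 in control cells.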
